A study of Danio rerio with 12 samples.

Results

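The genes described are 10 intestinal absorption genes, chosen by symbol: the rows of the deposited table whose gene symbol was fabp1b.1, fabp2, fabp6, anpepb, slc15a1b, tm4sf5, cdh17, vil1, lgals2b or cdx1b. All 10 symbols were found, each in 1 row, among 32057 genes. RNA came from whole wild-type zebrafish embryos kept from 4 to 72 hours post-fertilisation without methylmercury (MeHg, the control) or with 6, 30 or 50 µg/L MeHg, an organic mercury compound, and each of the 4 groups held 3 libraries of poly(A) RNA read as pairs. The labels do not say whether the 3 libraries of a group came from separate clutches, so a p-value here speaks of the spread among these libraries alone, which may be technical. Tissue was not dissected, and in whole-embryo RNA fewer cells of a type and less RNA per cell cannot be told apart.

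Enterocytes, the absorptive cells of the gut lining, carry a brush border of microvilli on the face toward the lumen. Membrane peptidases there trim the ends of peptides, transporters take up the products, and binding proteins in the cytosol carry fatty acids and bile acids inside the cell. In zebrafish larvae the gut tube and its brush border mature while the embryo still lives on yolk, whose lipid is handled by the yolk syncytial layer with some of the same genes.

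Total counts ran from 15665053 to 22207603 per library. Control replicate 3 was unlike its group: over genes, its Spearman correlation was 0.927 with control replicate 1 and 0.944 with control replicate 2, against 0.991 between those 2 libraries. With the 6 µg/L libraries the correlation was 0.9655 to 0.9734 for control replicate 3 and 0.9331 to 0.9664 for the other 2 controls. With the 30 µg/L libraries it was 0.9566 to 0.9602 for control replicate 3 and 0.923 to 0.9471 for the other 2 controls. Which of the controls are typical was not tested. Replicates of every group differed by more than counting noise. The chi-square per gene, which is near 1 where only counting noise separates 2 libraries, was 88.2 and 99.2 for the pairs with control replicate 3 and 3.07 to 12.6 for all other pairs. It had 0.253 times the fabp1b.1 level of the mean of the other 2 controls, 0.347 times the fabp2 level, 0.624 times the lgals2b level, 2.21 times the vil1 level and 4.17 times the cdx1b level. It had 1.03 times their anpepb level, 1.01 times their slc15a1b level and 0.904 times their tm4sf5 level. Many comparisons with the control are therefore also given without this library, and the cause of its difference was not tested. Values against this library alone rest on 1 control library and are given with no test.

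At 6 µg/L, the lowest dose, 6 of the 9 genes that were abundant enough to test fell: fabp6, tm4sf5, anpepb, fabp2, vil1 and lgals2b. At 30 µg/L 4 fell (fabp6, tm4sf5, anpepb and lgals2b), and at 50 µg/L 1 fell, tm4sf5. These counts include tm4sf5, which was abundant enough to test only through its control level. No gene of the set rose at any dose. The fold changes at 6 µg/L ran from 17.0-fold lower for fabp6 to 1.19-fold lower for cdx1b, which did not pass. Those 3 comparisons share the control libraries.

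The test was edgeR's quasi-likelihood test on counts, two-sided, with a call at a Benjamini-Hochberg adjusted p under 0.05 over the 19821 genes with an average of at least 0.5 FPKM (reads scaled to exonic length and library total) over the 12 libraries. Of the 10 genes, slc15a1b averaged 0.392 FPKM and was not tested. The average of tm4sf5, 0.599 FPKM, passed only through the controls, at 1.62 FPKM. Its exposed groups had 0.173, 0.337 and 0.267 FPKM in order of dose. A gene admitted this way could hardly be called higher, so its calls lower add no support for a fall of the set. At 6 µg/L the 6 of 9 genes lower stood beside 8.88% of all tested genes called lower, and the 0 higher beside 5.48% called higher. At 30 µg/L the 4 of 9 lower stood beside 17.3%, and the 0 higher beside 13.4%. At 50 µg/L the 1 of 9 lower stood beside 21.9%, and the 0 higher beside 17.6%. With so few genes, a count of 1 is not read as a difference from that share. Without control replicate 3 the count lower at 50 µg/L was 4 of 9, beside 32.1%. The median log2 fold change of the 9 genes was -0.997 at 6 µg/L, -0.78 at 30 µg/L and -0.43 at 50 µg/L, beside medians of -0.0048, -0.04 and -0.04 over all tested genes. At an unadjusted p under 0.05 in edgeR, 0 of the 9 genes were higher at 6 and at 30 µg/L, and 1, anpepb, was higher at 50 µg/L. DESeq2 called 0 genes higher at 6 and 30 µg/L and 1, anpepb, at 50 µg/L, and limma called 0 higher at each dose.

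**Figure D1:**
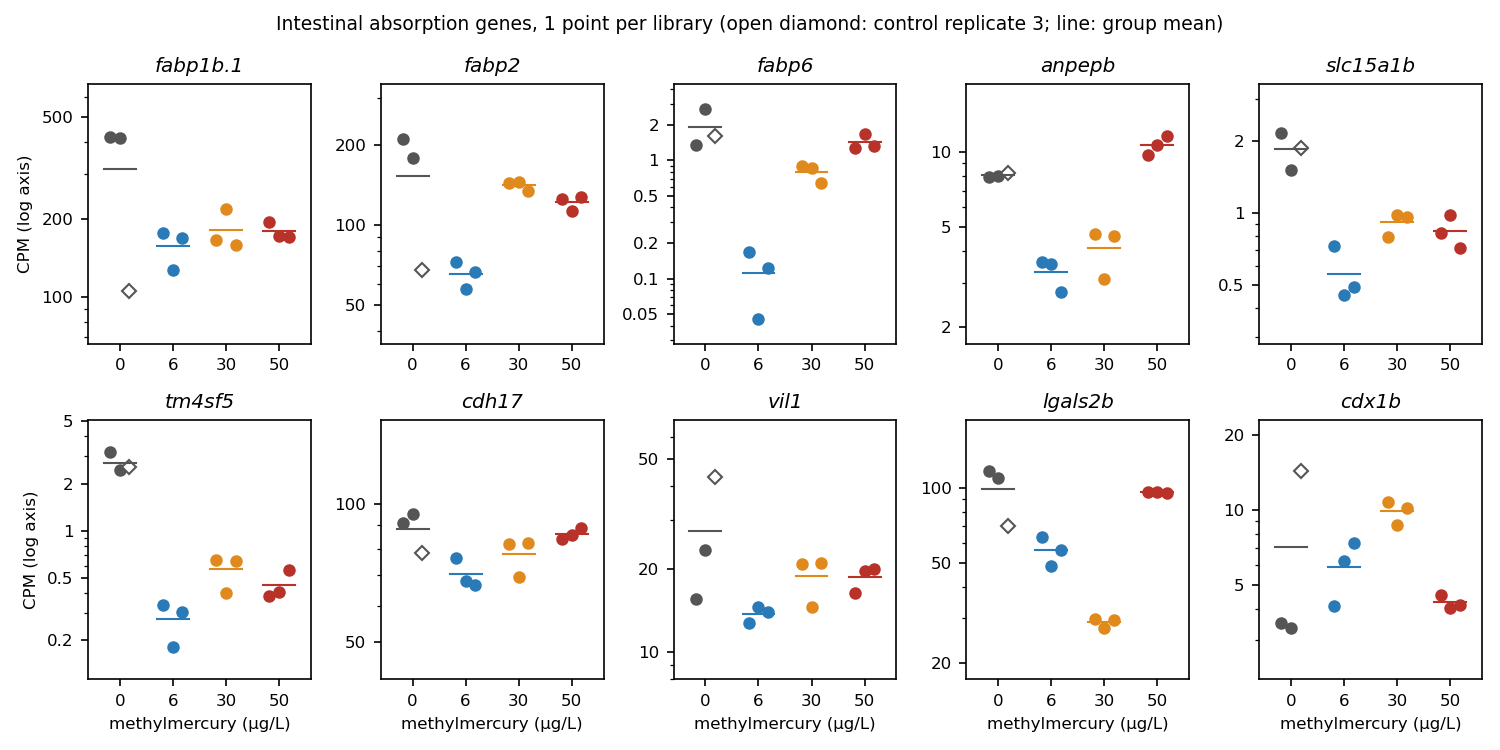
CPM (counts scaled to a common library total, log axis) of each of the 10 genes in every library, against the methylmercury concentration in µg/L; 1 point is 1 library, the line is the mean of 3, and the open diamond is control replicate 3. The 3 libraries at 6 µg/L lie below all 3 controls for fabp6, anpepb, slc15a1b, tm4sf5, cdh17, vil1 and lgals2b, and the open diamond stands apart from the other controls for fabp1b.1, fabp2, vil1 and cdx1b. The share of all genes with libraries separated in this way was not counted, so this describes the points only.

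Values for single genes are CPM, with library totals scaled by the trimmed mean of M values (TMM), in the order of replicates 1, 2 and 3. Among the cytosolic lipid carriers, fabp6 (ENSDARG00000044566, GRCz11 chromosome 21, 30043054 to 30047353, plus strand) encodes the ileal fatty acid binding protein, or gastrotropin, which binds bile acids. In controls fabp6 had 1.35, 2.74 and 1.60 CPM, in the 6 µg/L group 0.167, 0.0453 and 0.122 CPM, in the 30 µg/L group 0.890, 0.863 and 0.641 CPM, and in the 50 µg/L group 1.26, 1.68 and 1.33 CPM. All libraries at 6 and 30 µg/L lay below every control, those at 6 µg/L farthest, and at 50 µg/L the libraries overlapped the controls.

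The level of fabp6 averaged 0.111 ± 0.0615 CPM at 6 µg/L and 1.897 ± 0.738 CPM in controls (SD, n = 3 each), a log2 fold change of -4.08 ± 0.46 (SE; edgeR adjusted p = 0.00016). The 3 libraries at 6 µg/L held 6 fabp6 reads together, against 110 in controls, and from these sums the control level was 18.2 times as high, with an exact 95% counting interval of 8.09 to 50.6. The log2 fold change was -1.26 ± 0.33 at 30 µg/L (adjusted p = 0.013) and -0.43 ± 0.31 at 50 µg/L (adjusted p = 0.29). Between doses fabp6 was higher at 30 than at 6 µg/L by 2.82 ± 0.51 on the log2 scale (adjusted p = 0.003). Leaving out control replicate 3 gave -4.23 at 6 µg/L and -1.41 at 30 µg/L, and both passed; against that library alone the changes were -3.82 and -0.99. The call at 30 µg/L was lost without control replicate 2 (log2 -0.89) and without the library at 30 µg/L labelled replicate 3 (log2 -1.12).

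The intestinal fatty acid binding protein gene fabp2 (ENSDARG00000006427, chromosome 1, 25848231 to 25851575, plus strand) encodes the enterocyte's long-chain fatty acid carrier. In controls fabp2 had 212, 179 and 67.8 CPM, in the 6 µg/L group 72.8, 57.2 and 66.5 CPM, in the 30 µg/L group 144, 145 and 134 CPM, and in the 50 µg/L group 126, 113 and 127 CPM. Control replicate 3 fell within the range at 6 µg/L, and all libraries at 30 and 50 µg/L lay between it and the other controls. The level averaged 65.5 CPM at 6 µg/L and 152.7 CPM in controls, a log2 fold change of -1.22 ± 0.29 (adjusted p = 0.017). The change was -0.11 ± 0.29 at 30 µg/L (adjusted p = 0.80) and -0.32 ± 0.29 at 50 µg/L (adjusted p = 0.40).

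The result for fabp2 turned on control replicate 3. Without it, fabp2 was lower at all 3 doses, by log2 -1.59 at 6 µg/L, -0.48 at 30 µg/L and -0.69 at 50 µg/L, and each passed. Against control replicate 3 alone the changes were -0.04, 1.07 and 0.86 in order of dose. The call at 6 µg/L was lost without control replicate 1 (log2 -0.90), control replicate 2 (log2 -1.08), or the replicate 2 or replicate 3 library at 6 µg/L; over all libraries left out in turn the change ran from -1.59 to -0.90. The rise at 30 over 6 µg/L was log2 1.11 ± 0.29 (edgeR adjusted p = 0.023). Its difference uses no control, but its SE and p use the spread within all 12 libraries, controls included. The call was lost when any of the 6 libraries compared was left out, with the change between 1.01 and 1.19. Because of that shared spread, the losses do not speak of the 6 compared libraries alone.

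The gene fabp1b.1 (ENSDARG00000059227, chromosome 8, 999421 to 1006174, plus strand) encodes a liver-type fatty acid binding protein that binds fatty acids and bile acids and is also known in zebrafish from the yolk syncytial layer. In controls fabp1b.1 had 418, 415 and 105 CPM, in the 6 µg/L group 178, 127 and 170 CPM, in the 30 µg/L group 166, 220 and 159 CPM, and in the 50 µg/L group 196, 172 and 171 CPM. Every exposed library lay below control replicates 1 and 2 and above control replicate 3. None of the 3 comparisons passed: the log2 fold change was -0.98 ± 0.37 at 6 µg/L (adjusted p = 0.094), -0.78 ± 0.37 at 30 µg/L (adjusted p = 0.13) and -0.80 ± 0.37 at 50 µg/L (adjusted p = 0.11).

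The direction of fabp1b.1 depended on which controls were used. With control replicates 1 and 2 alone the changes were -1.41, -1.21 and -1.22 in order of dose, and each passed. Against control replicate 3 alone they were 0.60, 0.80 and 0.78. No difference between neighbouring doses passed, with a change of 0.20 at 30 against 6 µg/L (adjusted p = 0.78) and -0.02 at 50 against 30 µg/L (adjusted p = 0.99). Its tandem copy fabp1b.2, between which and fabp1b.1 reads could be split, averaged 0.158 CPM at 6 µg/L and 0.700 CPM in controls (log2 -2.01, adjusted p = 0.057). The related fabp1a had 0 counts in all 12 libraries.

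At the brush border, anpepb (ENSDARG00000103878, chromosome 25, 10811551 to 10827771, plus strand) encodes an alanyl aminopeptidase, the membrane enzyme that removes amino acids from the ends of peptides. In controls anpepb had 7.91, 8.01 and 8.23 CPM, in the 6 µg/L group 3.61, 3.58 and 2.74 CPM, in the 30 µg/L group 4.68, 3.11 and 4.63 CPM, and in the 50 µg/L group 9.70, 10.6 and 11.6 CPM. All libraries at 6 and 30 µg/L lay below the controls and all libraries at 50 µg/L above them. The 3 control values of anpepb lay close together, control replicate 3 included, and the changes at 6 and 30 µg/L passed with and without that library, at -1.27 and -0.94 without it.

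The log2 fold change of anpepb was -1.28 ± 0.18 at 6 µg/L (adjusted p = 0.00078) and -0.95 ± 0.18 at 30 µg/L (adjusted p = 0.0019). At 50 µg/L it was 0.40 ± 0.17 (adjusted p = 0.078), which did not pass with all libraries and passed without control replicate 3 (log2 0.41) or without the replicate 2 library at 30 µg/L. Between doses anpepb was higher at 50 than at 30 µg/L by 1.35 ± 0.18 (adjusted p = 0.0006), and the difference of 0.32 at 30 against 6 µg/L did not pass (adjusted p = 0.28). The paralogue anpepa averaged 1.26 CPM at 30 µg/L and 2.57 CPM in controls (log2 -1.01 ± 0.23, edgeR adjusted p = 0.0059). At 6 µg/L its change of -0.64 ± 0.22 did not pass (adjusted p = 0.075). Its mean at 50 µg/L was 1.83 CPM, a change of -0.48 that did not pass (adjusted p = 0.10). In FPKM anpepa averaged 0.73 in controls and 0.507, 0.357 and 0.517 in order of dose. Its average over all libraries passed the filter of 0.5 FPKM only through the controls, so its call lower adds no support for a fall.

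The peptide transporter gene slc15a1b (ENSDARG00000044528, chromosome 6, 12556427 to 12588044, minus strand) encodes PepT1, which takes up dipeptides and tripeptides with protons. In controls slc15a1b had 2.16, 1.52 and 1.87 CPM, in the 6 µg/L group 0.723, 0.453 and 0.487 CPM, in the 30 µg/L group 0.796, 0.978 and 0.962 CPM, and in the 50 µg/L group 0.822, 0.984 and 0.715 CPM. Every exposed library lay below every control, and the libraries at 6 µg/L lay below all those at 30 µg/L and overlapped those at 50 µg/L. These values rest on 8 to 42 reads a library. In a fit with no filter on low values, over 28397 genes, slc15a1b was lower at 6 µg/L by log2 -1.70 ± 0.31 (adjusted p = 0.003), at 30 µg/L by -0.98 ± 0.29 (adjusted p = 0.027) and at 50 µg/L by -1.09 ± 0.30 (adjusted p = 0.012). The second copy, slc15a1a, averaged 0.310 CPM at 6 µg/L and 0.499 CPM in controls, with overlapping libraries.

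Among the membrane and adhesion proteins, tm4sf5 (ENSDARG00000055185, chromosome 7, 21841037 to 21848205, plus strand) encodes a small membrane protein of the transmembrane 4 L6 family. In controls tm4sf5 had 3.18, 2.43 and 2.54 CPM, in the 6 µg/L group 0.334, 0.181 and 0.305 CPM, in the 30 µg/L group 0.656, 0.403 and 0.641 CPM, and in the 50 µg/L group 0.384, 0.405 and 0.562 CPM. All 9 exposed libraries lay far below the 3 controls. The exposed groups held 15, 35 and 25 tm4sf5 reads in order of dose, against 152 in controls, so these values rest on few reads. The log2 fold change was -3.31 ± 0.32 at 6 µg/L (adjusted p = 5.1e-05), -2.22 ± 0.28 at 30 µg/L (adjusted p = 0.00014) and -2.56 ± 0.29 at 50 µg/L (adjusted p = 3.5e-05), or 9.94-fold, 4.79-fold and 6.03-fold lower. With control replicates 1 and 2 alone the changes were -3.36, -2.27 and -2.61, and each passed.

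The libraries of tm4sf5 at 6 µg/L also lay below all libraries at 30 µg/L, by a difference of 1.08 ± 0.37 at 30 over 6 µg/L that did not pass (adjusted p = 0.07). In a trend fitted on the concentration, tm4sf5 was the only 1 of the 9 genes called, with -0.43 ± 0.14 log2 units per 10 µg/L (adjusted p = 0.036). That trend call was lost when any 1 of the 9 libraries of the control, 30 and 50 µg/L groups was left out, with the slope between -0.48 and -0.34. In the trend fit 1 of 9 genes was lower, beside 16.6% of all tested genes, and 0 were higher, beside 13.3%, and 0 were higher at an unadjusted p under 0.05, with DESeq2 or with limma.

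The gene cdh17 (ENSDARG00000005112, chromosome 16, 26774182 to 26802798, plus strand) encodes cadherin 17, the liver-intestine cadherin, a cell adhesion protein that zebrafish also use in the pronephros. In controls cdh17 had 91.2, 95.2 and 78.3 CPM, in the 6 µg/L group 76.5, 67.9 and 66.5 CPM, in the 30 µg/L group 81.9, 69.4 and 82.1 CPM, and in the 50 µg/L group 83.9, 85.6 and 88.6 CPM. The libraries at 6 µg/L lay just below the lowest control. The change was small, log2 -0.33 ± 0.11 at 6 µg/L (adjusted p = 0.063), -0.18 ± 0.11 at 30 µg/L (adjusted p = 0.22) and -0.04 ± 0.11 at 50 µg/L (adjusted p = 0.82). It was -0.42 at 6 µg/L and -0.27 at 30 µg/L without control replicate 3, and both passed.

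Villin, encoded by vil1 (ENSDARG00000040466, chromosome 9, 44907768 to 44953664, minus strand), bundles the actin filaments of microvilli. In controls vil1 had 15.6, 23.5 and 43.1 CPM, in the 6 µg/L group 12.8, 14.6 and 14.0 CPM, in the 30 µg/L group 20.9, 14.6 and 20.9 CPM, and in the 50 µg/L group 16.4, 19.6 and 19.9 CPM. The libraries at 6 µg/L lay below the lowest control, and the controls themselves spread widely. The log2 fold change was -0.997 ± 0.29 at 6 µg/L (adjusted p = 0.036), -0.55 ± 0.28 at 30 µg/L (adjusted p = 0.16) and -0.56 ± 0.28 at 50 µg/L (adjusted p = 0.13).

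The size of the vil1 change followed the controls used. Without control replicate 3 the change at 6 µg/L was -0.52, and it passed; against that library alone it was -1.63. The call was lost in 9 of the 12 fits that left out 1 library: those without control replicate 2, without replicate 1 or 3 at 30 µg/L, and without any library at 6 or 50 µg/L. Over the 12 fits the change ran from -1.26 to -0.52. Of the same 12 fits, vil1 passed at 30 and 50 µg/L only without control replicate 1, at -0.81 and -0.82. The villin-like gene vill averaged 6.31 CPM at 6 µg/L and 6.07 CPM in controls (log2 0.05, adjusted p = 0.89).

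The lectin gene lgals2b (ENSDARG00000038153, chromosome 6, 603278 to 609887, minus strand) encodes a galectin, a soluble protein that binds galactosides. In controls lgals2b had 116, 109 and 70.2 CPM, in the 6 µg/L group 63.4, 48.7 and 56.2 CPM, in the 30 µg/L group 29.8, 27.5 and 29.5 CPM, and in the 50 µg/L group 96.2, 96.0 and 95.0 CPM. The groups at 6, 30 and 50 µg/L did not overlap one another, with 30 µg/L lowest and 50 µg/L within the control range. Libraries at 30 µg/L and at 50 µg/L each lay very close together.

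The log2 fold change of lgals2b was -0.81 ± 0.16 at 6 µg/L (adjusted p = 0.0067), -1.76 ± 0.17 at 30 µg/L (adjusted p = 1.8e-05) and -0.04 ± 0.16 at 50 µg/L (adjusted p = 0.87). Between doses it was lower at 30 than at 6 µg/L by log2 -0.95 ± 0.17 (adjusted p = 0.0024) and higher at 50 than at 30 µg/L by 1.73 ± 0.17 (adjusted p = 7e-05). The changes against control replicates 1 and 2 were -1.01, -1.97 and -0.24, and each passed; against control replicate 3 alone they were -0.31, -1.26 and 0.46. The paralogue lgals2a, looked up after the values of lgals2b were seen, averaged 34.0 CPM in controls and 13.6, 38.7 and 44.3 CPM in order of dose. It was lower at 6 µg/L (log2 -1.33 ± 0.24, adjusted p = 0.0041) and did not pass at 30 µg/L (log2 0.19, adjusted p = 0.57).

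The gene cdx1b (ENSDARG00000116139, chromosome 21, 43976075 to 43992027, minus strand) encodes a caudal-type homeobox transcription factor known from intestinal differentiation. In controls cdx1b had 3.52, 3.35 and 14.3 CPM, in the 6 µg/L group 4.12, 6.25 and 7.37 CPM, in the 30 µg/L group 10.8, 8.69 and 10.1 CPM, and in the 50 µg/L group 4.55, 4.05 and 4.14 CPM. All 9 exposed libraries lay above control replicates 1 and 2 and below control replicate 3. No comparison passed: the change was -0.28 ± 0.44 at 6 µg/L (adjusted p = 0.70), 0.46 ± 0.43 at 30 µg/L (adjusted p = 0.44) and -0.76 ± 0.46 at 50 µg/L (adjusted p = 0.21).

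Without control replicate 3, cdx1b was higher by log2 0.77 at 6 µg/L and 1.51 at 30 µg/L, both of which passed, and by 0.30 at 50 µg/L, which did not. Against that library alone the changes were -1.27, -0.52 and -1.74. The 50 µg/L libraries lay below all 30 µg/L libraries, a difference of -1.22 ± 0.45 that did not pass with all libraries (adjusted p = 0.13) and passed at -1.21 without control replicate 3. The gene overlaps ik on the opposite strand, which averaged 81.5 CPM at 50 µg/L and 104.1 CPM in controls (log2 -0.35 ± 0.11, adjusted p = 0.024). Without a stated strand setting, reads from the overlap cannot be told apart, and the part of ik in the cdx1b values was not tested.

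**Figure D2:**
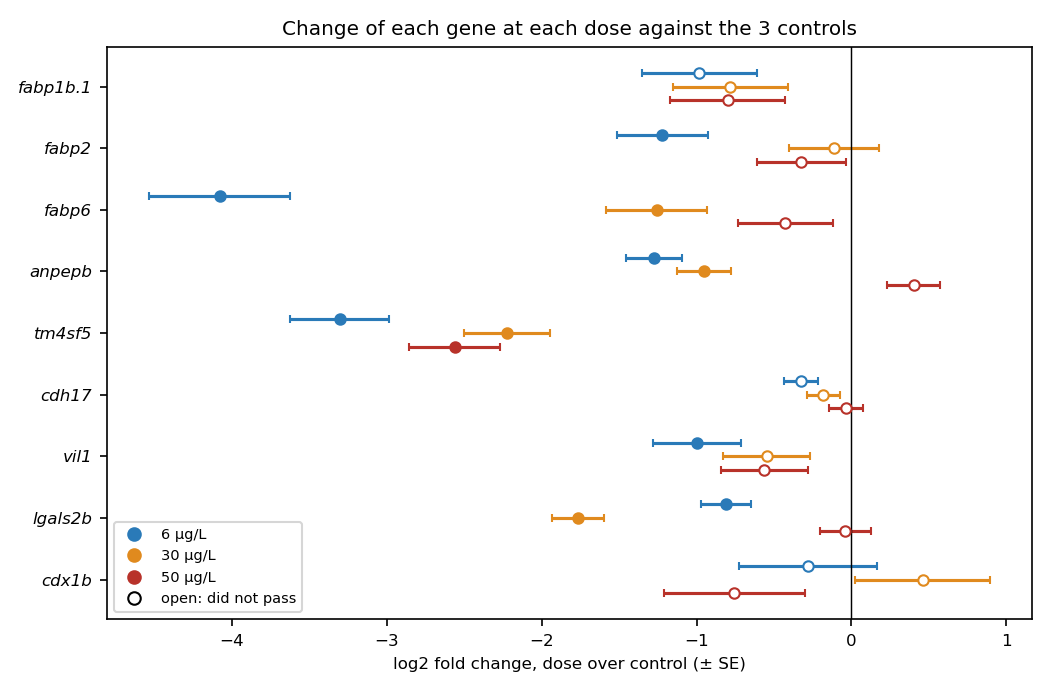
Log2 fold change of the 9 tested genes at 6, 30 and 50 µg/L methylmercury over the 3 controls, with the SE as bars; filled points passed at an adjusted p under 0.05. The value for tm4sf5 passed at all 3 doses, whereas fabp6, anpepb and lgals2b passed at 6 and 30 µg/L and fabp2 and vil1 at 6 µg/L.

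**Figure D3:**
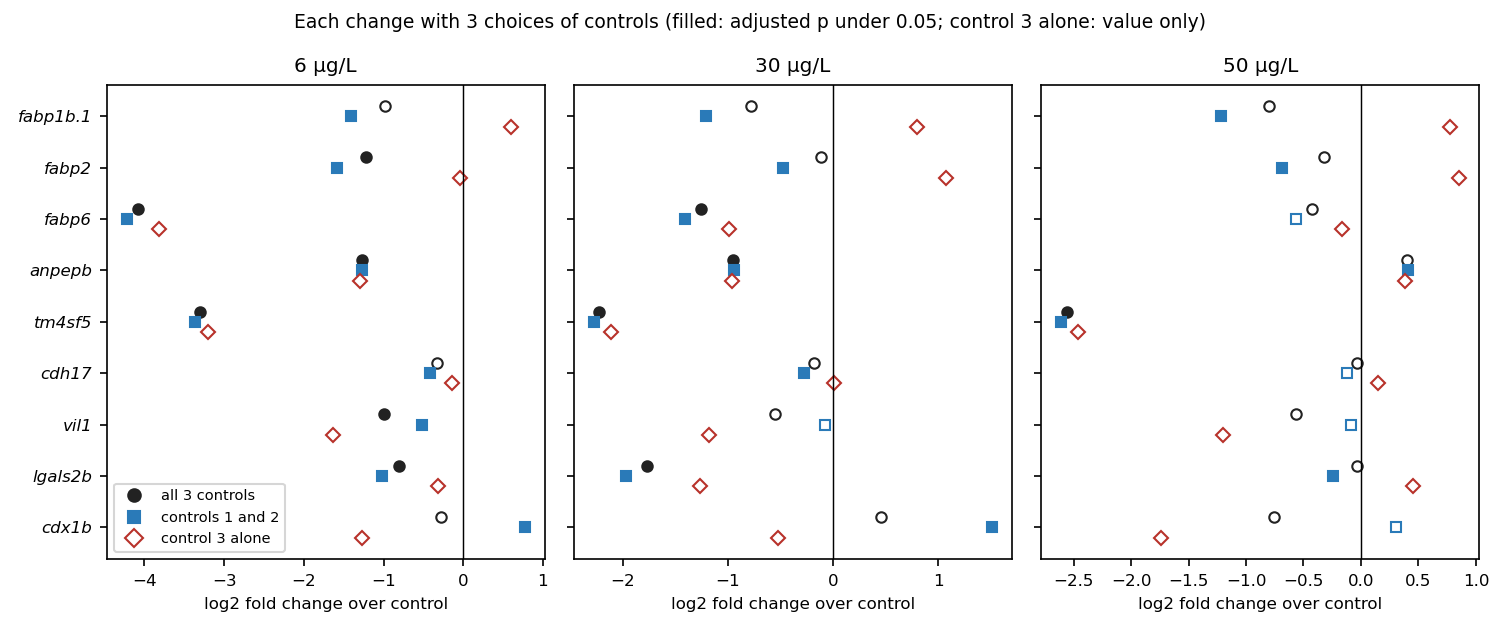
The same log2 fold changes at 6, 30 and 50 µg/L with all 3 controls (black circles), with control replicates 1 and 2 (blue squares) and with control replicate 3 alone (red diamonds); filled circles and squares passed, and the open diamonds are values with no test. Points for anpepb and tm4sf5 coincide closely, and those for fabp1b.1, fabp2, cdx1b, lgals2b and cdh17 lie on both sides of 0 at some or all doses.

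Counted over the set, 8 of 9 genes were lower and 1, cdx1b, was higher at 6 µg/L without control replicate 3, beside 27.9% of all tested genes lower and 28.6% higher in that fit. The counts without it were 7 lower and 1 higher at 30 µg/L, beside 32.2% and 29.7% of all tested genes. Where embryos had 50 µg/L they were 4 lower and 1 higher, beside 32.1% and 30.8%. Calls over all tested genes were thus also more frequent without that library. The summed level of the 10 genes was 871, 839 and 393 CPM in controls, 412, 326 and 384 CPM in the 6 µg/L group, 460, 491 and 443 CPM in the 30 µg/L group, and 535, 504 and 520 CPM in the 50 µg/L group. All exposed sums lay below control replicates 1 and 2, and those at 30 and 50 µg/L above control replicate 3. Most of the sum came from fabp1b.1, fabp2, lgals2b and cdh17, which averaged 313, 153, 98.4 and 88.2 CPM in controls. It therefore says little of the genes with low levels.

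The comparisons between neighbouring doses use no control libraries in the difference itself. At 30 against 6 µg/L, fabp6 and fabp2 were higher and lgals2b was lower, 2 of 9 genes higher beside 7.13% of all tested genes and 1 of 9 lower beside 8.44%. At 50 against 30 µg/L, anpepb and lgals2b were higher, 2 of 9 beside 4.18%, and 0 of 9 were lower beside 4.44%, with 1, cdx1b, lower at an unadjusted p under 0.05 and 0 by DESeq2 or limma. The median change of the 9 genes was 0.45 at 30 against 6 µg/L and -0.01 at 50 against 30 µg/L. With only the compared groups in the fit, 1 of 9 genes was lower and 4 were higher at 30 against 6 µg/L, beside 17% and 17.1% of all tested genes. In the same kind of fit at 50 against 30 µg/L, 2 were lower and 3 higher, beside 14.6% and 15.1%.

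Levels between genes were compared in FPKM, which divides by exonic length. In controls the order was fabp1b.1 (599 ± 320 FPKM), lgals2b (142 ± 25.4), fabp2 (110 ± 48.5), cdh17 (23.7 ± 0.687), vil1 (4.13 ± 2.51), fabp6 (3.67 ± 1.31), anpepb (2.44 ± 0.266), tm4sf5 (1.62 ± 0.210), cdx1b (1.37 ± 1.33) and slc15a1b (0.693 ± 0.133), each a mean in FPKM with its SD over 3 libraries. Neighbours whose library ranges overlapped were lgals2b and fabp2, vil1 and fabp6, fabp6 and anpepb, tm4sf5 and cdx1b, and cdx1b and slc15a1b. The range of fabp1b.1 lay wholly above that of lgals2b, that of fabp2 above cdh17, that of cdh17 above vil1, and that of anpepb above tm4sf5.

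At 6 µg/L fabp1b.1 was again highest, at 336 FPKM, and tm4sf5 (0.173 FPKM), slc15a1b (0.223 FPKM) and fabp6 (0.230 FPKM) were lowest, with overlapping ranges, while anpepb stood at 1.08 FPKM. At 30 µg/L fabp2, at 103 FPKM, stood above lgals2b, at 41.8 FPKM, and their ranges did not overlap. At 50 µg/L lgals2b, at 139 FPKM, again stood above fabp2, at 89.2 FPKM, and slc15a1b and tm4sf5 were lowest, at 0.313 and 0.267 FPKM with overlapping ranges.

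For each gene called at any dose, the 3 genes with the highest Pearson r of log2 CPM over the 12 libraries are given as a description. The 12 points share the 4 groups and the difference of control replicate 3. For fabp6 they were mbl2 (r = 0.954), rbp2b (r = 0.946) and xylb (r = 0.941), and rbp2b averaged 47.1 CPM in controls and 3.92, 11.6 and 36.3 CPM in order of dose. For fabp2 they were krt4 (r = 0.991), cyt1l (r = 0.983) and txndc5 (r = 0.982). For anpepb they were AL954142.2 (r = 0.956), ush1c (r = 0.951) and iscub (r = 0.945), and ush1c averaged 4.84 CPM in controls and 2.33, 3.34 and 6.02 CPM in order of dose.

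For tm4sf5 the genes were itln3 (r = 0.982), si:dkeyp-73b11.8 (r = 0.963) and mlsl (r = 0.958). The level of itln3 averaged 2.58 CPM in controls and 0.186, 0.532 and 0.436 CPM in order of dose. For vil1 they were si:ch211-180a12.2 (r = 0.936), rpe65a (r = 0.930) and ppp1r18 (r = 0.879), and for lgals2b ap1m1 (r = 0.984), ms4a17a.9 (r = 0.982) and baxb (r = 0.974).

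Other genes of intestinal absorption were counted from lists by role, each without the 10 genes. Every list count, here and for other tissues, stands beside the shares of all tested genes called: 8.88% lower and 5.48% higher, 17.3% and 13.4%, and 21.9% and 17.6% in order of dose. Without control replicate 3 those shares were 27.9% and 28.6%, 32.2% and 29.7%, and 32.1% and 30.8% in order of dose. Of 10 brush border enzymes tested, 5 fell at 6 µg/L and 3 at 30 µg/L, and at 50 µg/L 2 fell and 2 rose, with median log2 changes of -0.91, -0.41 and 0.05. The 3 at 30 µg/L include anpepa, which was abundant enough to test only through its control level. The dipeptidyl peptidase gene dpp4 fell at 6 µg/L (log2 -1.19 ± 0.17, adjusted p = 0.00066), and the aminopeptidase P gene xpnpep2 fell at 6 µg/L (log2 -1.52 ± 0.29, adjusted p = 0.0047) and at 50 µg/L (log2 -2.16 ± 0.30, adjusted p = 0.00017). The gamma-glutamyltransferase gene ggt1b rose at 50 µg/L (log2 0.89 ± 0.21, adjusted p = 0.0061). Against control replicates 1 and 2 the counts were 7 lower at 6 µg/L, 6 lower at 30 µg/L, and 5 lower and 2 higher at 50 µg/L. The medians against control replicate 3 alone were -0.31, 0.10 and 0.21 in order of dose.

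Of 15 brush border structure and junction genes, 6 fell at 6 µg/L, 6 at 30 µg/L and 5 at 50 µg/L, with medians of -0.47, -0.35 and -0.23. The gut claudin genes cldn15la (log2 -1.09 ± 0.18, adjusted p = 0.0024) and cldn15a (log2 -0.70 ± 0.15, adjusted p = 0.0092) and the microvillus-link gene ush1c (log2 -1.05 ± 0.21, adjusted p = 0.0064) fell at 6 µg/L. At 50 µg/L the epithelial adhesion gene epcam (log2 -0.85 ± 0.12, adjusted p = 0.00022), cldn15lb (log2 -1.01 ± 0.20, adjusted p = 0.0019) and cldn15la (log2 -0.71 ± 0.18, adjusted p = 0.0084) fell. Against control replicates 1 and 2 they were 7 lower and 3 higher, 7 and 4, and 5 and 4 in order of dose. The list medians against control replicate 3 alone were -0.57, -0.37 and -0.27. Skin and kidney express several of these genes too.

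Of 22 lipid absorption genes, 5 fell and 1 rose at 6 µg/L, 5 fell and 2 rose at 30 µg/L, and 6 fell and 1 rose at 50 µg/L, with medians of -0.20, -0.30 and -0.21. The cellular retinol binding gene rbp2a averaged 42.2 CPM at 6 µg/L and 131 CPM in controls (log2 -1.64 ± 0.17, adjusted p = 7.1e-05) and was lower at 50 µg/L by log2 -0.90 ± 0.16 (adjusted p = 0.001). The monoacylglycerol acyltransferase gene mogat2 fell at 6 µg/L (log2 -1.54 ± 0.30, adjusted p = 0.0055) and at 50 µg/L (log2 -2.01 ± 0.31, adjusted p = 0.00036), and pla2g12b, which zebrafish need for normal lipoproteins, fell at 6 µg/L (log2 -0.98 ± 0.18, adjusted p = 0.0038). The gene for sar1b, the GTPase of the vesicles that carry chylomicrons, was higher at 50 µg/L (log2 0.46 ± 0.09, adjusted p = 0.0012). Against control replicate 3 alone the medians of this list were 0.17, 0.13 and 0.06, and without it they were -0.33, -0.45 and -0.32. With it left out, 11 of the 22 were lower and 3 higher, 14 and 2, and 10 and 2 in order of dose.

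Of 18 nutrient transporters, 2 fell and 1 rose at 6 µg/L, 5 fell and 1 rose at 30 µg/L, and 4 fell and 5 rose at 50 µg/L, with medians of -0.01, 0.17 and 0.41. The 4 of 18 lower at 50 µg/L lay close to the 21.9% of all tested genes. The basolateral bile acid and steroid transporter gene slc51a averaged 3.62 CPM at 6 µg/L and 11.2 CPM in controls (log2 -1.62 ± 0.22, adjusted p = 0.00053). Its mean at 50 µg/L was 3.17 CPM (log2 -1.81 ± 0.22, adjusted p = 5.5e-05). The glutamate transporter gene slc1a1 fell at 6 µg/L (log2 -0.64 ± 0.12, adjusted p = 0.0038) and at 50 µg/L (log2 -0.76 ± 0.12, adjusted p = 0.00032). The sodium-proton exchanger gene slc9a3.2 rose at 6 µg/L (log2 0.96 ± 0.29, adjusted p = 0.044) and the phosphate transporter gene slc34a2b at 50 µg/L (log2 1.32 ± 0.24, adjusted p = 0.0011). Leaving out control replicate 3, 4 were lower and 7 higher, 5 and 6, and 4 and 10 in order of dose. Medians of this list against control replicate 3 alone were -0.15, -0.18 and -0.06.

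Of 21 gut transcription factors other than cdx1b, 3 fell and 1 rose at 6 µg/L, 3 fell and 1 rose at 30 µg/L, and 5 fell and 1 rose at 50 µg/L, with medians of 0.10, 0.01 and -0.06. The bile acid receptor gene nr1h4 fell at 6 µg/L (log2 -1.09 ± 0.29, adjusted p = 0.026), where the pregnane X receptor gene nr1i2 also fell (log2 -1.08 ± 0.15, adjusted p = 0.0006) and the epithelial factor elf3 rose (log2 1.12 ± 0.14, adjusted p = 0.00043). Where embryos had 50 µg/L, hnf4b fell (log2 -1.39 ± 0.26, adjusted p = 0.0013), nr1i2 fell (log2 -0.62 ± 0.14, adjusted p = 0.0052) and gata6 rose (log2 0.94 ± 0.14, adjusted p = 0.00035). With control replicate 3 left out the counts were 4 lower and 7 higher, 5 and 5, and 5 and 6 in order of dose. Against that library alone the medians were -0.07, -0.20 and -0.20.

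**Figure D4:**
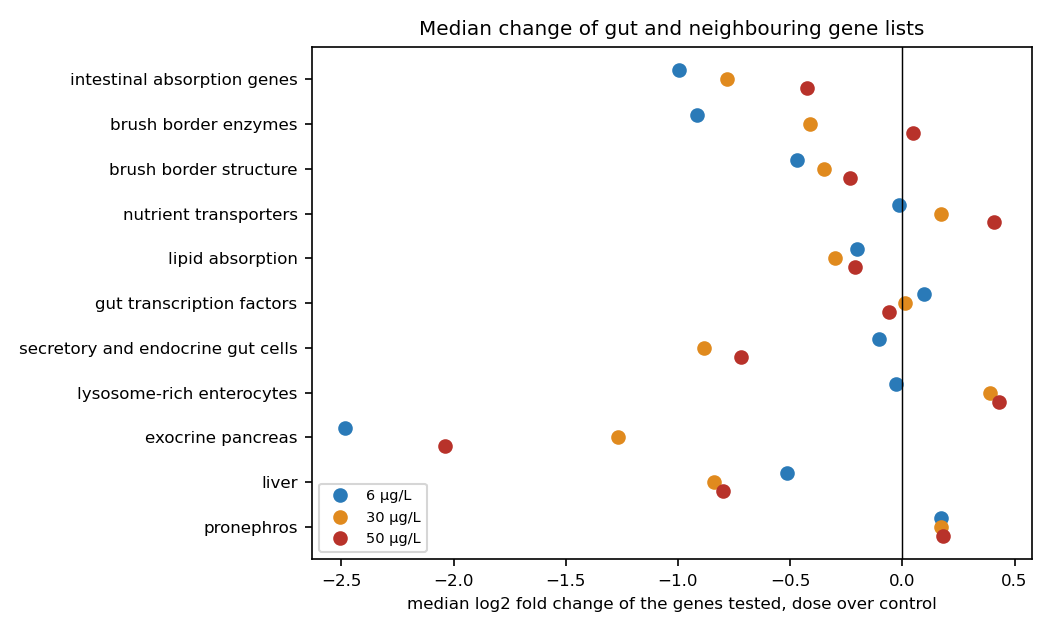
Median log2 fold change, at 6, 30 and 50 µg/L methylmercury over control, of the tested genes on each list. The medians of the intestinal absorption genes and of the brush border enzymes were lowest at 6 µg/L, at -0.997 and -0.91. So were those of brush border structure (-0.47), exocrine pancreas (-2.48), nutrient transporters (-0.01) and lysosome-rich enterocytes (-0.03). The medians of the exocrine pancreas list lay farthest below 0, and those of the pronephros list lay slightly above 0.

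Markers of the other tissues that a whole embryo holds moved in several ways beside these genes. Of 12 exocrine pancreas genes tested, 11 fell at 6 µg/L and 9 at each of 30 and 50 µg/L, with medians of -2.48, -1.27 and -2.04. Their summed level was 110 to 141 CPM in controls, 33.7 to 41.3 CPM at 6 µg/L, 42.6 to 45.8 CPM at 30 µg/L and 45.7 to 52.3 CPM at 50 µg/L, and none of the 18 matched was at 0 in a whole group. The trypsin genes prss59.2 (log2 -3.94 ± 0.30, adjusted p = 8e-06) and prss1 (log2 -1.86 ± 0.18, adjusted p = 4.9e-05) and the chymotrypsinogen gene ctrb1 (log2 -2.51 ± 0.23, adjusted p = 3.6e-05) fell at 6 µg/L. Trypsin genes are near copies of one another, so reads could be split among them.

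Of 18 liver genes, 5 fell at 6 µg/L, 14 fell and 1 rose at 30 µg/L, and 12 fell and 3 rose at 50 µg/L, with medians of -0.51, -0.84 and -0.80. The liver carrier gene fabp10a fell at 6 µg/L (log2 -2.52 ± 0.23, adjusted p = 4.2e-05) and at 50 µg/L (log2 -3.54 ± 0.25, adjusted p = 1e-06). The summed liver level was 5836 to 10536 CPM in controls, 4926 to 5888 CPM at 6 µg/L, 4811 to 5182 CPM at 30 µg/L and 5180 to 5383 CPM at 50 µg/L, with ahsg2 at 0 in controls and at 50 µg/L. Against control replicates 1 and 2, 14 liver genes were lower at 6 µg/L. The exocrine pancreas counts in that fit were 11, 10 and 9 lower in order of dose. Against control replicate 3 alone the liver medians were 0.11, -0.22 and -0.0061 in order of dose. Those of the exocrine pancreas list were -2.31, -1.08 and -2.01.

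Of 13 yolk syncytial layer genes, 3 fell and 1 rose at 6 µg/L, 4 fell and 2 rose at 30 µg/L, and 4 fell and 3 rose at 50 µg/L, with medians of -0.20, -0.25 and -0.19. Their summed level was 8055 to 15125 CPM in controls, 9320 to 10377 CPM at 6 µg/L, 10008 to 10871 CPM at 30 µg/L and 9794 to 10069 CPM at 50 µg/L. The layer's defining factors mxtx1 and mxtx2 were at 0 in controls, and mxtx2 was at 0 at 6 µg/L. The transferrin gene tfa, also on the liver list, fell at 6 µg/L (log2 -1.25 ± 0.17, adjusted p = 0.00055). There mttp also fell (log2 -0.48 ± 0.12, adjusted p = 0.023) and ctsl.1 rose (log2 0.87 ± 0.21, adjusted p = 0.019). At 50 µg/L tfa fell (log2 -1.64 ± 0.17, adjusted p = 1.6e-05). At that dose slc30a10 (log2 1.21 ± 0.19, adjusted p = 0.00037) and slc40a1 (log2 0.69 ± 0.11, adjusted p = 0.00038) rose. Of the lipid absorption genes, 2, mttp and apobb.1, stand on this list too. With control replicate 3 left out the counts were 7 lower and 2 higher, 9 and 2, and 8 and 3 in order of dose. The medians were then -0.42, -0.50 and -0.45. Against control replicate 3 alone, which held the lowest control sum, they were 0.09, 0.40 and 0.41.

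The pronephros list includes cdh17, hnf1ba of the gut transcription factors and slc9a3.2 of the nutrient transporters, which rose at 6 µg/L. Of its 20 genes tested, 1 fell and 2 rose at 6 µg/L, 3 rose at 30 µg/L and 1 rose at 50 µg/L. Medians of these genes were 0.17, 0.17 and 0.18. Their summed level was 469 to 616 CPM in controls, 496 to 534 CPM at 6 µg/L, 543 to 606 CPM at 30 µg/L and 560 to 572 CPM at 50 µg/L, and all 22 matched genes had reads in every group. Of 16 genes of gut smooth muscle and enteric neurons, 5 fell at 6 µg/L, and 7 fell and 2 rose at each of 30 and 50 µg/L, with medians of -0.35, -0.44 and -0.25; their sum was 368 to 802 CPM in controls, 549 to 661 CPM at 6 µg/L, 565 to 604 CPM at 30 µg/L and 513 to 541 CPM at 50 µg/L. Of 8 swim bladder genes, 2 fell and 1 rose at each of 6 and 30 µg/L, and 3 fell and 2 rose at 50 µg/L, with medians of -0.17, -0.08 and -0.03; their sum was 160 to 182 CPM in controls, 156 to 171 CPM at 6 µg/L, 148 to 155 CPM at 30 µg/L and 161 to 171 CPM at 50 µg/L. Leaving out control replicate 3, the pronephros counts were 4 lower and 8 higher at 6 µg/L, 3 and 9 at 30 µg/L, and 9 higher at 50 µg/L. The same fits had 7 lower and 3 higher, 8 and 4, and 8 and 5 in order of dose for smooth muscle and enteric neurons, and 2 and 2, 3 and 2, and 2 and 2 for the swim bladder. Every matched gene of these last 2 lists had reads in every group. The part of these tissues in the levels of the 10 genes was not tested.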

How the data were processed

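The authors deposited raw whole-number counts per gene. The deposited FPKM values equal the authors' counts divided by exonic gene size and summed counts, within 0.005. The submitters' processing notes list the build GRCz11 and DESeq2, HTSeq 0.6.1, HISAT2 2.0.1, cutadapt 1.9.1 and FastQC 0.10.1, without roles. For the annotation release and strand setting, nothing is given in the sources used here. Symbols and coordinates come from the deposited table.

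Counts of the 12 libraries were fitted together by group with edgeR 4.0.16 (R 4.3.3, TMM scaling, quasi-likelihood, two-sided, Benjamini-Hochberg over 19821 genes at a mean of 0.5 FPKM or more, adjusted p under 0.05). The script was tested on simulated data. The SE is the log2 change divided by the square root of F, which is approximate. Intervals on counts cover counting error only. Limma 3.58.1 on log2(FPKM + 1 or 0.1) and DESeq2 1.42.0 were alternatives, with other filters, scalings, designs, a gene length correction and each library left out.

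The 10 genes and the 13 lists were chosen with earlier results of these data known. Of 267 listed symbols, 248 matched the table, 2 matched through reference tables and 17 were not used. Named were the 10 genes, up to 3 genes per list with the smallest adjusted p at 6 and at 50 µg/L, the genes of highest correlation and the paralogues. The values of 1 gene that this rule names are not reported here. Correlations used log2 CPM with a prior count of 2.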

Additional observations from a re-analysis of the deposited data

How the results depend on the processing

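Over 1314 changes of the 9 genes under alternatives, 1170 kept their direction and their side of the threshold, 53 lost a call, 34 gained one and 57 changed sign. Of those that changed sign, 0 were calls in the full fit. The stricter adjusted p and the minimum log2 change reuse the full fit, so direction could not change there. Leaving out a library of neither compared group removes none of the values compared, so the 1170 is no measure of stability. The number of genes called was 3 at 6 µg/L against 6 in the full fit, 5 at 30 against 6 µg/L and 5 at 50 against 30 µg/L with only the compared groups in the fit. With a mean FPKM of at least 2 it was 2 at 30 µg/L, 0 at 50 µg/L, 1 at 50 against 30 µg/L and 0 in the trend. In that fit anpepb, tm4sf5 and cdx1b, which averaged 1.98, 0.60 and 1.27 FPKM, were not tested. At 50 µg/L the number called was 2 with DESeq2, with the length correction and with no filter. The fit with no filter also tested slc15a1b, which it called at 50 µg/L (adjusted p = 0.012). The trend had 0 at a minimum log2 change of 1, at an adjusted p under 0.01, and with either limma fit or the replicate block. Beyond which genes each fit tested, the cause of these differences was not tested. Unless given, the share of all tested genes called in the same fit was not compared. Counts in this section are therefore not read as results about the set.

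Leaving out 1 library at a time, the counts ran from 4 to 9 at 6 µg/L, 3 to 8 at 30 µg/L, 1 to 5 at 50 µg/L, 2 to 5 at 30 against 6 µg/L, 2 to 3 at 50 against 30 µg/L and 0 to 1 in the trend. Signs turned in cdh17 at 50 µg/L (-0.12 to 0.0461), cdx1b at 6 (-0.62 to 0.77) and 50 µg/L (-1.08 to 0.30), fabp2 at 30 (-0.48 to 0.22) and 50 µg/L (-0.69 to 0.0152), lgals2b at 50 µg/L (-0.24 to 0.13), and fabp1b.1 (-0.10 to 0.16) and vil1 (-0.15 to 0.0704) at 50 against 30 µg/L. Slopes turned in cdx1b (-0.11 to 0.0424), fabp2 (-0.0039 to 0.11), fabp6 (-0.0124 to 0.18), lgals2b (-0.0371 to 0.0479) and vil1 (-0.0661 to 0.0399).

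Against control replicate 3 alone, the sign turned in fabp1b.1 (0.60, 0.80 and 0.78 by dose, slope 0.0806), fabp2 (1.07 at 30 and 0.86 at 50 µg/L), cdh17 (0.0077 at 30 and 0.14 at 50 µg/L), lgals2b (0.46 at 50 µg/L, slope 0.11) and cdx1b (-0.52 at 30 µg/L). The length correction turned fabp2 at 30 µg/L (0.0919), lgals2b at 50 µg/L (0.14, slope 0.0259), vil1 at 50 against 30 µg/L (0.0181) and the cdh17 slope (-0.0044). With no filter the sign turned in cdh17 (0.0066) and lgals2b (0.0056, slope 0.0062) at 50 µg/L. With limma at the smaller pseudocount it turned in cdx1b at 6 µg/L (0.12), fabp2 at 30 µg/L (0.0264) and vil1 at 50 against 30 µg/L (0.0044), and at the larger in fabp2 (0.0248) and vil1 (0.0004). With dose as a rank the slopes of fabp2 (-0.0173) and fabp6 (-0.082) turned, and the lgals2b slope, -0.001 in the full fit, was 0.0028 with DESeq2, 0.0029 with median-of-ratios scaling, 0.0011 with the stricter FPKM filter and 0.0026 with the replicate block. The smaller pseudocount moved the median of all genes by 0.13 at 6 µg/L and by -0.12 at 30 against 6 µg/L.

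With the replicate block, the genes called were 6, 4 and 1 by dose, 3 at 30 against 6 µg/L, 2 at 50 against 30 µg/L and 0 in the trend. The labels do not say whether same-numbered libraries were paired, and the full fit did not pair them. The correlation of their deviations from group means ran from -0.26 to 0.35, and 8 of 18 pairs exceeded 0.1. Between libraries of different number it ran from -0.39 to 0.31. Genes with few reads, such as fabp6 at 6 µg/L, tm4sf5 in the exposed groups and slc15a1b, are limited by depth.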

Other observations

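Other cell types of the gut lining were counted from lists that hold none of the 10 genes. Of 15 genes of secretory and endocrine gut cells, 4 fell at 6 µg/L, 8 at 30 µg/L and 7 at 50 µg/L, with median log2 changes of -0.11, -0.88 and -0.72. Their summed level was 349 to 365 CPM in controls, 292 to 315 CPM at 6 µg/L, 172 to 202 CPM at 30 µg/L and 151 to 160 CPM at 50 µg/L. At 6 µg/L the peptide hormone gene vipb (log2 -2.46 ± 0.42, edgeR adjusted p = 0.0025), penka (log2 -1.01 ± 0.19, adjusted p = 0.0048) and scg3 (log2 -0.56 ± 0.11, adjusted p = 0.0061) fell. At 50 µg/L the gel-forming mucin gene muc5.1 (log2 -1.91 ± 0.19, adjusted p = 1.4e-05), scg3 (log2 -1.08 ± 0.11, adjusted p = 1.7e-05) and agr2, a disulfide isomerase of mucus cells (log2 -1.49 ± 0.21, adjusted p = 0.00017), fell. Without control replicate 3 the counts were 6 lower and 4 higher, 9 and 2, and 8 and 2 in order of dose. Neurons also express vipb, penka and scg3, and the skin also expresses muc5.1 and agr2.

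Lysosome-rich enterocytes of the hind gut take up whole proteins. Of 12 genes of these cells, 1 rose at 6 µg/L, 3 at 30 µg/L and 5 at 50 µg/L, with medians of -0.03, 0.39 and 0.43. Their summed level was 1323 to 2056 CPM in controls, 1739 to 1976 CPM at 6 µg/L, 2539 to 3143 CPM at 30 µg/L and 3143 to 3265 CPM at 50 µg/L. The protease gene ctsl.1 rose at 6 µg/L (log2 0.87 ± 0.21, adjusted p = 0.019), and the cathepsin genes ctsba (log2 0.93 ± 0.12, adjusted p = 0.0001), ctsla (log2 1.01 ± 0.16, adjusted p = 0.00049) and ctsh (log2 0.74 ± 0.21, adjusted p = 0.014) rose at 50 µg/L. Cathepsins are expressed in many other cells, and ctsl.1 stands on the yolk syncytial layer list too. The larger part of the summed level was ctsla, which averaged 1209 CPM in controls and 2438 CPM at 50 µg/L. Without control replicate 3, 5 of these genes were lower and 2 higher at 6 µg/L, 1 lower and 5 higher at 30 µg/L, and 1 lower and 7 higher at 50 µg/L.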
